A study of Mus musculus with 2 samples.

Results

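The miR-30 family was followed across its 3 genomic loci in the adrenal gland, a gland whose cortex makes steroids and whose medulla releases catecholamines. Its members were taken by gene name, Mir30a, Mir30b, Mir30c-1, Mir30c-2, Mir30d and Mir30e, which are 6 of the 2202 miRNA genes in each count table. The samples form 1 group of 2 microRNA-seq libraries from adrenal glands of B6CASTF1/J females aged 36 days, a first-generation hybrid mouse, with no transgene and no treatment in the labels. The labels number 2 biological replicates but give a single donor identifier for both, so an SD below is a spread between libraries that may not be a spread between animals. No second condition exists here, and the comparisons are those between members, between loci and between the libraries. In whole tissue, fewer cells of a type and less RNA per cell cannot be told apart.

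A miRNA gene is transcribed as part of a longer RNA that folds into a hairpin, from which 2 short arms (5p and 3p) are cut, and 1 arm or both can be loaded into an Argonaute protein. The seed, bases 2 to 8 of the loaded arm, largely sets which messages are bound, so that members with a common seed are expected to have overlapping targets. The miR-30 family is known from kidney podocytes, from the differentiation of fat cells and from epithelial cells, where it restrains mesenchymal genes, and from autophagy. Neighbouring members at a locus can be cut from a shared primary transcript.

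The mature sequences show what sets the members apart and what they have in common. RefSeq (GRCm38.p6) held sequences for 4 of the 6 members, and Mir30b and Mir30d were not matched. The 5p arms are printed first, 5′ to 3′, with the seed in capitals, followed by the other mature mouse sequence with that seed in the RefSeq table.
mmu-miR-30a-5p: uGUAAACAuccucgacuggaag
mmu-miR-30e-5p: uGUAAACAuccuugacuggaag
mmu-miR-30c-5p: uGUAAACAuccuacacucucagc
mmu-miR-384-5p: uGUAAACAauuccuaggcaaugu
Counted from 1 at the 5′ end, miR-30a-5p and miR-30e-5p differ by 1 base, C13U. From miR-30a-5p to miR-30c-5p there are 5 differences over 22 bases (C13A, G14C, G18C, G19U and A20C), all of them after the 12 bases that the 3 arms share. Of 1738 mature entries in the table, 5 have the seed GUAAACA, because Mir30c-1 and Mir30c-2 each carry miR-30c-5p.

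The 3p arms of the 4 members with a sequence form 2 seed classes, and those of Mir30b and Mir30d were not available. Those of Mir30a and Mir30e have the seed UUUCAGU, and those of Mir30c-1 and Mir30c-2 have UGGGAGA.
mmu-miR-30a-3p: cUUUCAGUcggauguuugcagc
mmu-miR-30e-3p: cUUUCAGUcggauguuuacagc
mmu-miR-30c-1-3p: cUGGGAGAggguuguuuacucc
mmu-miR-30c-2-3p: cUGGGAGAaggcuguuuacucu
The first pair differs by G18A alone, and from miR-30c-1-3p to miR-30c-2-3p there are 3 differences, G9A, U12C and C22U. The tables count reads for each gene and do not separate the arms, so the share of either arm in the values below is not known.

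The hairpins of Mir30c-1 and Mir30c-2 are shown because their counts depend on that likeness, with the mature arms in capitals.
Mir30c-1: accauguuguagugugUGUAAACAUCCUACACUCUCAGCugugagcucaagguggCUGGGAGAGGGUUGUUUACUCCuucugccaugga
Mir30c-2: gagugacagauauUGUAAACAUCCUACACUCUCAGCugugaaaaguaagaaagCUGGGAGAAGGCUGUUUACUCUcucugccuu
They share an unbroken stretch of 28 bases that holds the whole 5p arm, 23 bases long. A read of that arm therefore matches both loci, and multimapping reads enter none of the gene counts. The loss can only lower their counts. The tables list 3984008 multimapping reads for replicate 1 and 2302439 for replicate 2 without their source. The size of the loss is therefore not known, and the levels of both Mir30c genes are uncertain. The longest stretch that Mir30a and Mir30e share is 18 bases, and it is shorter than their mature arms of 22 bases.

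Each locus holds 1 pair of members on the same strand (mm10, GENCODE M21). On chromosome 1, plus strand, Mir30a (ENSMUSG00000065405.3, 23272269 to 23272339) lies in no other annotated gene, and Mir30c-2 (ENSMUSG00000065567.1, 23291701 to 23291784) lies 19361 bases further on, in an exon of the long noncoding gene Gm27028. On chromosome 15, minus strand, Mir30d (ENSMUSG00000065437.1, 68341208 to 68341289) lies in an exon of the long noncoding gene Gm20732, and Mir30b (ENSMUSG00000065476.2, 68337415 to 68337510) lies 3697 bases away and overlaps in part an exon of the noncoding transcript Gm26621. On chromosome 4, minus strand, Mir30e (ENSMUSG00000065409.1, 120772606 to 120772697) and Mir30c-1 (ENSMUSG00000065490.1, 120769534 to 120769622) lie 2983 bases apart in introns of Nfyc, which encodes a subunit of the CCAAT-binding factor NF-Y.

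Levels are a gene's sense counts per 1000000 counted on the sense strand of all miRNA genes (CPM). Such counts came to 5397603 in replicate 1 and 3029977 in replicate 2. The lowest count of any member was 543, for Mir30c-1 in replicate 2, so all 6 members passed the filter of 10 counts. Of the medulla and endocrine markers Mir375 and Mir7b were found by name, with a summed level of 31491 CPM in replicate 1 against 25256 CPM in replicate 2. Mir375 (mean 25584 CPM) carried this sum over Mir7b (2790 CPM), and 1 gene had the higher CPM in replicate 1 and 1 in replicate 2. No miRNA specific to the adrenal cortex was available as a marker.

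By counts, each locus had 1 abundant and 1 low member. Counts of Mir30c-1 and Mir30c-2 leave out multimapping reads, so how low these genes are is uncertain. The abundant ones, Mir30e, Mir30a and Mir30d, lay between 7480 and 13131 CPM in the libraries, and the low ones, Mir30c-2, Mir30b and Mir30c-1, lay between 179 and 340 CPM. The abundant 3 held 98.1% of the family's counts in replicate 1 and 97.6% in replicate 2. Any uncounted reads of miR-30c-5p would lower these shares. The lowest of them exceeded the highest low member 39.3-fold in replicate 1 and 22.0-fold in replicate 2. By geometric means over both libraries, the smallest fold of an abundant over a low member was 36.0, for Mir30d over Mir30b. The spread pooled over all genes allows 2.26-fold between geometric means of 2 genes at 95%. That limit covers only the spread between these same libraries. The abundant and low groups were set from these same levels.

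Mir30e, the abundant gene of the Nfyc intron, had 59435 sense counts in replicate 1, or 11011 CPM (10924 to 11100 by the 95% Wilson method), and 37964 in replicate 2, or 12530 CPM (12405 to 12655). Its mean was 11770 ± 1073 CPM (SD, n = 2 libraries), the 20th highest of all genes. Replicate 2 was the higher library for this gene.

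Mir30a had 60670 counts (11240 CPM, 11152 to 11330) in replicate 1, against 35351 (11667 CPM, 11547 to 11789) in replicate 2, with a mean of 11454 ± 302 CPM. The libraries were closer to each other for Mir30a than for the other abundant members.

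Mir30d had 70873 counts (13131 CPM, 13035 to 13227) in replicate 1, against 22664 (7480 CPM, 7384 to 7578) in replicate 2, with a mean of 10305 ± 3996 CPM. It was the highest member of the family in replicate 1 and the lowest of the abundant 3 in replicate 2. Its rank among all genes was 18 in replicate 1 and 26 in replicate 2, whereas Mir30e stood at 22 and 18.

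Among the low members, Mir30b had 1206 counts (223 CPM, 211 to 236) in replicate 1, against 1029 (340 CPM, 319 to 361) in replicate 2, with a mean of 282 ± 82.1 CPM. Mir30c-2 had 1512 counts (280 CPM, 266 to 295) in replicate 1, against 814 (269 CPM, 251 to 288) in replicate 2. Mir30c-1 had 1019 counts (189 CPM, 178 to 201) in replicate 1, against 543 (179 CPM, 165 to 195) in replicate 2. For both Mir30c genes the intervals of the libraries overlapped, and for Mir30b they did not.

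**Figure D1:**
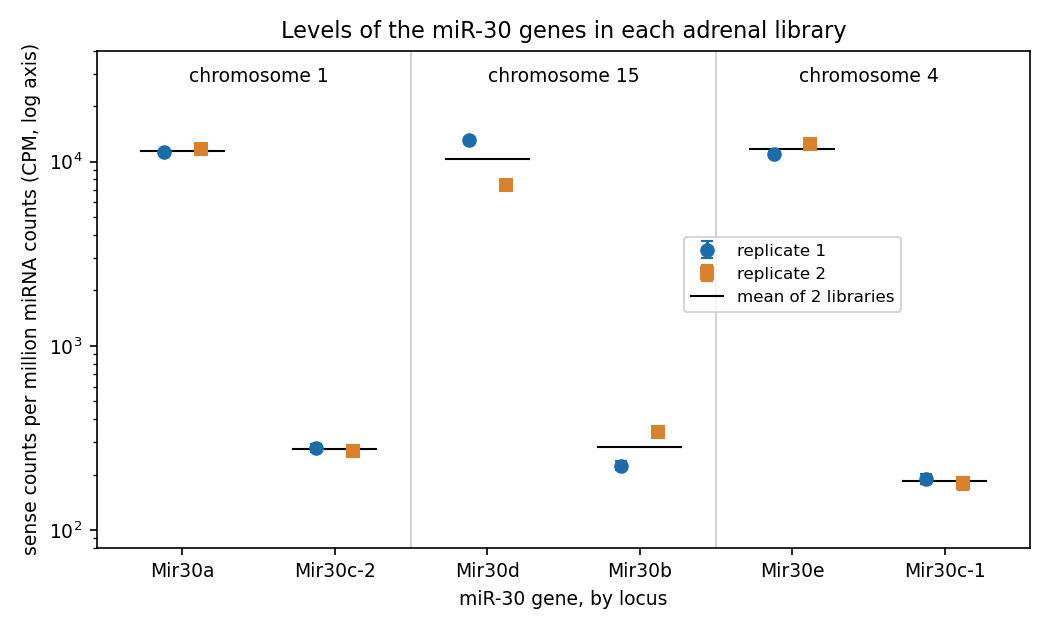
Level of each miR-30 gene in CPM (log axis) by locus, with replicate 1 left of replicate 2, 95% Wilson intervals as bars (mostly smaller than the points) and the mean as a line. Each locus has a gene at 7480 CPM or more beside one at 340 CPM or less, and Mir30d and Mir30b show the widest gaps between the libraries, in opposite directions. Multimapping reads are left out, which makes the levels of Mir30c-1 and Mir30c-2 uncertain.

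Within the abundant and the low members the order was not settled by the pooled spread. All 9 pairs of an abundant with a low member differed by more than 2.26-fold and were ordered alike in replicate 1 and replicate 2. In 6 of these 9 pairs the low member is a Mir30c gene, whose counts leave out multimapping reads. The spread between the libraries covers neither that loss nor a bias of a sequence that repeats in both libraries. The other 6 pairs differed by less, from 1.00-fold between Mir30b and Mir30c-2 to 1.50-fold between Mir30b and Mir30c-1. By the 2.26-fold limit, Mir30e, Mir30a and Mir30d could not be separated from each other, nor could Mir30b, Mir30c-2 and Mir30c-1. Still, without multimapping reads, Mir30c-1 was the lowest in both libraries. Mir30c-2 exceeded it 1.48-fold in replicate 1 and 1.50-fold in replicate 2, and Mir30b 1.18-fold and 1.90-fold. In 4 of the 15 pairs the order turned round between the libraries, all of them inside these 2 groups.

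Although the low members include both genes of miR-30c, the 2 genes kept the same proportion. There were 1.48 Mir30c-2 counts for each Mir30c-1 count in replicate 1 (95% exact interval 1.37 to 1.61) and 1.50 in replicate 2 (1.34 to 1.67). Together they held 1.30% of the family's counts, without multimapping reads, in replicate 1 and 1.38% in replicate 2.

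The whole family held 3.61% of the sense miRNA counts in replicate 1 and 3.25% in replicate 2. Shares within the family do not depend on how the libraries are scaled, but they leave out multimapping reads. The chromosome 15 locus (Mir30d with Mir30b) held 37.0% of the family in replicate 1 (95% Wilson interval 36.8 to 37.2%) and 24.1% in replicate 2 (23.8 to 24.4%). The chromosome 1 locus (Mir30a with Mir30c-2) held 31.9% (31.7 to 32.1%) in replicate 1 and 36.8% (36.5 to 37.1%) in replicate 2, and the chromosome 4 locus (Mir30e with Mir30c-1) held 31.0% (30.8 to 31.3%) and 39.1% (38.8 to 39.5%).

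The locus with the largest share was thus chromosome 15 in replicate 1 and chromosome 4 in replicate 2. The means over the libraries were 35.1% ± 5.73 for chromosome 4, 34.4% ± 3.42 for chromosome 1 and 30.6% ± 9.14 for chromosome 15 (SD, n = 2). Intervals cover counting error only, since PCR copies cannot be told from separate molecules.

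**Figure D2:**
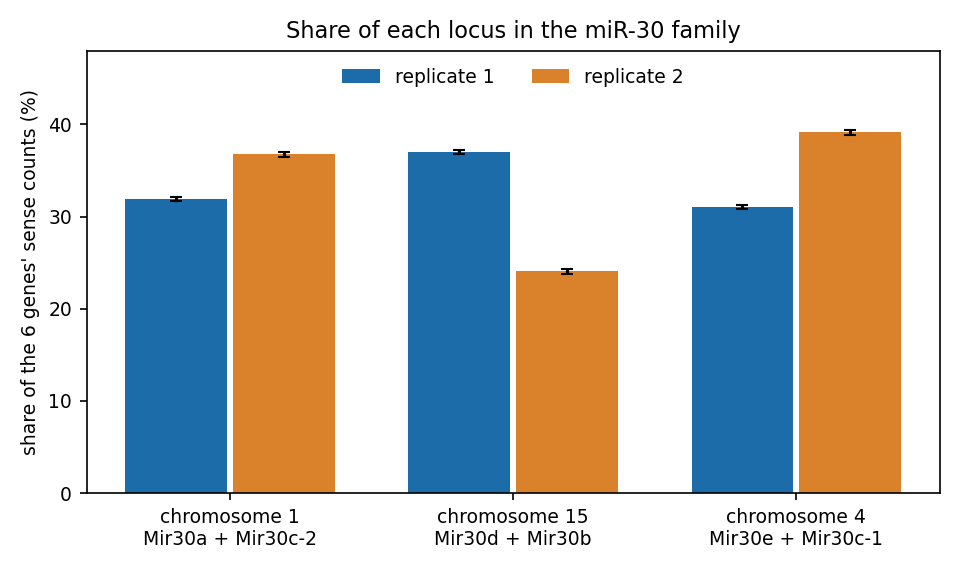
Share of each locus in the sense counts of the 6 miR-30 genes (%), with replicate 1 left of replicate 2 and 95% Wilson intervals as error bars. The chromosome 15 bar is the tallest in replicate 1 at 37.0% and the shortest in replicate 2 at 24.1%.

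Between the libraries, the ratio of a locus's genes differed by at most 1.20-fold on chromosomes 1 and 4, against 2.67-fold on chromosome 15. The Mir30c counts leave out multimapping reads, so the size of the ratios on chromosomes 1 and 4 is uncertain. Mir30a had 40.1 counts for each count of Mir30c-2 in replicate 1 (95% exact interval 38.1 to 42.3) and 43.4 in replicate 2 (40.5 to 46.6), a difference of 1.08-fold with overlapping intervals. Mir30e had 58.3 counts for each count of Mir30c-1 in replicate 1 (54.8 to 62.1) and 69.9 in replicate 2 (64.2 to 76.2). That was a difference of 1.20-fold, with intervals that did not overlap. Mir30d had 58.8 counts for each count of Mir30b in replicate 1 (55.5 to 62.3) and 22.0 in replicate 2 (20.7 to 23.5), a difference of 2.67-fold.

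The change on chromosome 15 came from both genes, since Mir30d had the higher CPM in replicate 1 and Mir30b the higher CPM in replicate 2. It exceeded counting error, but not the 5.10-fold that the pooled spread allows for a ratio of 2 genes between 2 libraries. That spread was estimated from these same libraries, so lying inside it shows nothing about how stable the pair is. Over 101 pairs of adjacent miRNA genes on the same strand, at most 20000 bases apart and with at least 100 counts each over both libraries, the median change was 1.63-fold and 16 pairs (15.8%) changed more than Mir30d with Mir30b. Without chromosome 12, which holds a large imprinted miRNA cluster, 5 of 57 pairs did. The pair Mir30a with Mir30c-2 was among the steadiest, with 96 of the 101 pairs changing more. Mir30c-1 with Mir30e was exceeded by 77. This listing of pairs was made after the values had been seen and is a description.

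**Figure D3:**
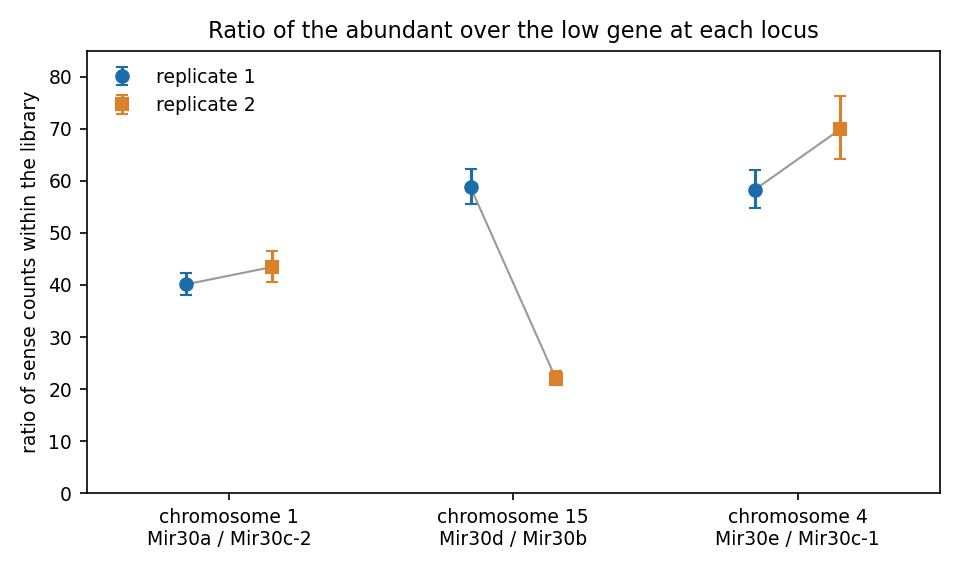
Sense counts of the abundant gene divided by those of the low gene at each locus, in replicate 1 (left) and replicate 2 (right), with 95% exact intervals as bars and a line joining the libraries. The ratio for chromosome 15 is 58.8 in replicate 1 and 22.0 in replicate 2, whereas the ratios at the other loci differ by at most 1.20-fold between the libraries.

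Each gene's difference between the libraries was measured as a log2 ratio of replicate 1 over replicate 2, scaled by TMM, and tested against counting error with an exact two-sided binomial test and Benjamini-Hochberg adjustment over the 434 genes whose counts in the pair of libraries add up to 10 or more. What is compared is therefore 2 libraries of 1 condition. All 6 members passed, Mir30d as the higher in replicate 1 and the other 5 as higher in replicate 2. The background was high, with 58.5% of all genes tested passing. By direction, 30.2% were higher in replicate 1 against 28.3% in replicate 2. With total counts in place of TMM, 189 of the genes that passed were higher in replicate 1 and 83 in replicate 2, against 131 and 123 with TMM.

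Mir30d was the member higher in replicate 1, with a log2 ratio of 0.51 (1.42-fold, counting SE 0.011). Mir30b had the widest ratio of the family at -0.91 (1.87-fold higher in replicate 2, counting SE 0.061, adjusted p = 2.41e-47 in the exact binomial test). Mir30e had -0.49 (1.40-fold) and Mir30a -0.36 (1.28-fold, adjusted p = 3.34e-289 in the exact binomial test), and the adjusted p of Mir30d and Mir30e was smaller still. In the same exact binomial test Mir30c-2 had -0.24 (adjusted p = 0.000305) and Mir30c-1 had -0.23 (adjusted p = 0.00664).

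TMM and total counts differ by 0.30 on this scale. With total counts the log2 ratios of Mir30c-2 and Mir30c-1 turned to 0.06 and 0.08, towards replicate 1, and neither passed (adjusted p = 0.411 each in the exact binomial test). Mir30d, Mir30b, Mir30e and Mir30a kept their direction under both, but their sizes changed. With total counts the log2 ratio was 0.81 for Mir30d, -0.60 for Mir30b, -0.19 for Mir30e and -0.05 for Mir30a. The median size of the ratio was 1.34-fold over the 6 members and 1.49-fold over all genes tested, which include genes with far fewer counts.

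None of the 6 members passed when the pooled spread between the libraries, a coefficient of variation of 41.6%, replaced counting error in edgeR's exact test (adjusted p = 0.999 each). At an unadjusted p under 0.05, 0 of the 6 members and 24 of the 434 genes did, and none of the 434 passed after adjustment. That spread was estimated from the same differences between the libraries, so few passing genes follow from its construction, and this shows nothing about how stable the members are. The pooled spread allows ratios up to 3.16-fold between 2 libraries at 95%, and every member was inside that range.

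**Figure D4:**
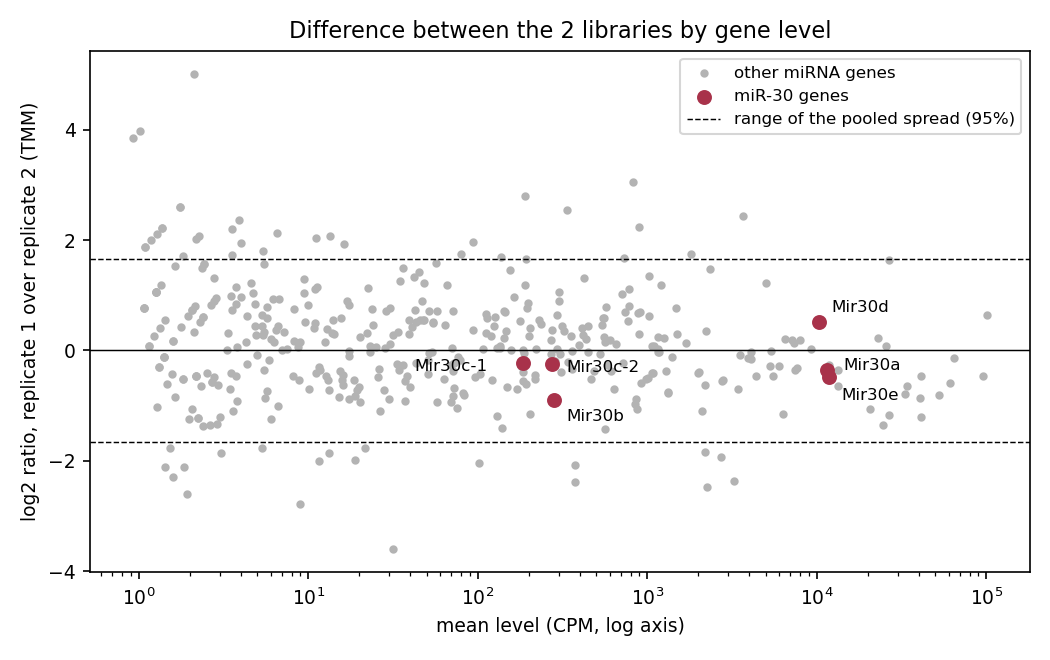
Log2 ratio of replicate 1 over replicate 2 (TMM) against mean level in CPM (log axis) for the 434 genes tested, with the miR-30 genes in red, the other genes in grey and dashed lines at the 3.16-fold range of the pooled spread. The 6 members lie between the dashed lines, a range estimated from these same libraries, with Mir30d above 0 and the other 5 below it.

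Markers of several cell types also differed between the libraries, some in the direction of Mir30d and some in that of Mir30b. CPM uses total counts, with which 189 of the genes that passed were higher in replicate 1 and 83 in replicate 2. All 4 kidney tubule markers (Mir192, Mir194-1, Mir194-2 and Mir215) had the higher CPM in replicate 1, with a sum of 136 CPM in replicate 1 and 57.4 CPM in replicate 2. None was at 0 in both libraries, but only 2 of the 4 had at least 10 counts in both, and Mir215 had a mean of 2.13 CPM. Mir122 of hepatocytes had 1503 and 146 CPM, and the 3 red-cell genes summed to 1210 and 576 CPM. Mir126a of endothelium had 133209 and 69285 CPM. In the direction of Mir30b, the group of smooth muscle and fibroblasts summed to 31782 CPM in replicate 1, against 59522 CPM in replicate 2, with 3 of 4 genes higher in replicate 2. Mir143 (mean 41484.5 CPM) carried most of this sum. Mir214 (mean 896 CPM) went the other way, with a log2 ratio of 2.23, while Mir199b had a mean of 17.3 CPM. White-cell genes summed to 1928 and 2617 CPM, with 4 of 5 higher in replicate 2. Epithelial genes summed to 873 and 3729 CPM, although 4 of 7 had the higher CPM in replicate 1. Their larger sum in replicate 2 was carried by Mir203, with a log2 ratio of -2.47 and a mean of 2256 CPM. The 5 muscle genes summed to 476 and 495 CPM, with Mir1a-1 and Mir133a-2 at 0 in both libraries. Only 1 of the 5 had at least 10 counts in both, and nearly all of the sum was Mir206, with a mean of 484 CPM. The part of these cell types in the miR-30 values was not tested.

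Strand decided whether Mir30e was seen. When strand was ignored, Mir30e had 0 counts in both libraries, while the other 5 members had exactly their sense counts. Mir30f is annotated at the same positions as Mir30e (chromosome 4, 120772606 to 120772697) on the plus strand, and no other member has a miRNA gene on its opposite strand. Its mature sequence carries the letters of the miR-30 seed 1 base earlier, at bases 1 to 7, shown in capitals.
mmu-miR-30f: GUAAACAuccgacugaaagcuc
This sequence is the reverse complement of part of the Mir30e hairpin and covers 19 bases of the positions of miR-30e-3p.
Mir30e: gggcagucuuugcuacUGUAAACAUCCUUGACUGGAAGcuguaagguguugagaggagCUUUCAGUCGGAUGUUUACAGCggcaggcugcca
Mir30f had 0 sense counts in replicate 1, which allows a level of up to 0.556 CPM at a limit of 3 counts, and 1 sense count in replicate 2. Its antisense counts, 59435 and 37964, were those of Mir30e sense reads counted a second time. Without strand the chromosome 4 locus held a mean of 0.826% of the family, in place of 35.1%.

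Mir384, the other gene with the miR-30 seed in the RefSeq table, is on the X chromosome (105344282 to 105344369, minus strand). It had 62 counts (11.5 CPM, 8.96 to 14.7) in replicate 1, against 36 (11.9 CPM, 8.58 to 16.4) in replicate 2, with 95% Wilson bounds. Both levels were under those of Mir30c-1, the lowest member, at 189 and 179 CPM. The exact binomial test found no difference of Mir384 between the libraries beyond counting error, at a log2 ratio of -0.35 and an adjusted p of 0.360.

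The genes nearest to each member in level were sought by distance in log2(CPM + 1) over the 2 libraries, which is a likeness over 2 points only. Mir127, an imprinted gene, was the nearest gene to both Mir30a (distance 0.10) and Mir30e (0.15), at 12005 CPM in replicate 1 and 11758 CPM in replicate 2. The second nearest were Mirlet7d for Mir30a (0.32) and Mir99a for Mir30e (0.28). Mir30d had no gene as close, with Mirlet7e at 0.38 (10255 and 8214 CPM) and Mir652 at 0.53. Mir30b had Mir1843a at 0.43 and Mirlet7a-1 at 0.51. The Mir30c genes had near neighbours on the scale, Mir130b (0.06) and Mir421 (0.11) for Mir30c-1, and Mirlet7a-1 (0.10) and Mir434 (0.13) for Mir30c-2.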

How the data were processed

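Raw read counts per miRNA gene were deposited in 3 columns without headers, with 4 summary entries that name no gene (61.4% of reads in replicate 1 and 59.8% in replicate 2, left out of library sizes and tests). The notes deposited with each library name mm10 and GENCODE M21. No source used here names the aligner, counter or trimming. The columns were read as counts without strand, sense and antisense, and sense counts were used. Gene names, positions and overlapping genes came from GENCODE M21, and sequences from RefSeq.

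CPM used each library's sum of sense counts. Ratios used TMM sizes (edgeR 4.0.16, R 4.3.3), a prior of 0.5 counts and at least 10 counts over both libraries, with exact binomial tests (scipy 1.17.1) and Benjamini-Hochberg adjustment (statsmodels 0.14.6, threshold 0.05). As pooled spread, the common dispersion that edgeR estimates without groups was taken. The ratio test was tested on simulated data. Alternatives included DESeq2 1.42.0 size factors. Named besides the 6 members were genes with the same seed, genes on the opposite strand and the 2 genes nearest in level to each member. The members, lists and rules were chosen with earlier results of these data known. Of the marker names listed for the medulla, Mir7a-1 and Mir7a-2 had no match under those names. The annotation used has genes named Mir7-1 (mean 130 CPM) and Mir7-2 (28.2 CPM), which were not used as markers.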

Additional observations from a re-analysis of the deposited data

How the results depend on the processing

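Ignoring strand moved the mean level of Mir30e to 0, Mir30a to 14270, Mir30d to 12964, Mir30b to 349, Mir30c-2 to 342 and Mir30c-1 to 230 CPM, the family share to 2.82%, the locus shares to 52.9% (chromosome 1), 46.3% (chromosome 15) and 0.826% (chromosome 4), and the ratio of Mir30e over Mir30c-1 to 0. Per 1000000 of all reads in the table, Mir30e had 4647, Mir30a 4518, Mir30d 4041, Mir30b 111, Mir30c-2 108 and Mir30c-1 72.5. Leaving out Mir126a, the most abundant gene, gave a family share of 3.82%. With the pooled spread as the error, or with a minimum difference of 2-fold, 0 of the 6 members passed, and over all genes 0 and 85 in place of 254. With total counts 4 members passed, and the log2 ratios of Mir30c-2 and Mir30c-1 became 0.060 and 0.075. DESeq2 size factors, other count minimums, a larger prior and a thinned replicate 1 left all 6 ratios with their direction and past the threshold. Leaving out replicate 1 or replicate 2 gave the values of the remaining library. Removal of a trend with GC content was not run, since 4 of the 6 members had a hairpin sequence in the table used (66.7%, under the 80% required). No paired analysis was possible because there is only 1 group. Counts of 62 and 36 limit the precision of Mir384, and uncounted multimapping reads limit the levels of the Mir30c genes.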
